A study of Mus musculus with 6 samples.

Results

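The let-7 guide arms are the mature strands from the 5p side of the let-7 hairpins, together with let-7j and miR-98-5p. They were found by name in a table of mature mouse miRNAs, and all 10 names were present among its 1966 rows. The samples were heart tissue of male wild-type mice collected 8 weeks after surgery. In the 3 sham mice (animals 47, 68 and 69) the operation did not narrow the aorta, and in the 3 mice with transverse aortic constriction (TAC; animals 29, 78 and 81) it was narrowed, which loads the left ventricle with pressure. Each animal gave 1 library, and its number in the labels names it here as sham 47 or TAC 29. Strain and age were not given in the sources used here.

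A miRNA pairs with messenger RNAs mainly through its seed, bases 2 to 8 counted from its 5′ end, and lowers the amount and translation of those messages. Members of the let-7 family share a seed and are among the most abundant miRNAs of differentiated tissue, the heart included. They are scarce in early embryonic cells, where the RNA-binding protein LIN28 blocks the maturation of their precursors, and their known targets include Hmga2, Ras and Myc family messages and Igf2bp messages.

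The mature sequences (RefSeq, GRCm38.p6, matched by name for all 10 rows) are shown with the seed in capitals, because the rows that moved apart in these hearts differ by as little as 1 base.
let-7a-5p: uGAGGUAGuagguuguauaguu
let-7b-5p: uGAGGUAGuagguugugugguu
let-7c-5p: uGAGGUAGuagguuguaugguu
let-7d-5p: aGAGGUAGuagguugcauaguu
let-7e-5p: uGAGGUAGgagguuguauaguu
let-7f-5p: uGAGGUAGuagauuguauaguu
let-7g-5p: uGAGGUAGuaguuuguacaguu
let-7i-5p: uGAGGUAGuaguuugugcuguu
let-7j: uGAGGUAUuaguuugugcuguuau
miR-98-5p: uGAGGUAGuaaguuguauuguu

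The seed GAGGUAG was shared by 9 of the 10 members. let-7j carried GAGGUAU, 2 extra bases at its 3′ end and a length of 24 nt, against 22 nt for the others. Against let-7a-5p, with positions counted from its 5′ end, let-7c-5p had 1 substitution (A19G), let-7f-5p 1 (G12A) and let-7e-5p 1 (U9G). let-7b-5p had A17G and A19G, let-7d-5p U1A and U16C, let-7g-5p G12U and U18C, and miR-98-5p G11A and A19U. let-7i-5p differed by G12U, A17G, U18C and A19U, and let-7j by these 4 and G8U. In the table the seed GAGGUAG was also found in let-7k, with 5 to 26 counts per library, and in miR-1961, with at most 1 count. The seed of let-7j was also that of miR-202-3p, which had 0 counts in every library. None of these 3 rows was tested.

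The members lay at 13 places on 8 chromosomes (mm10, coordinates of the table; host transcripts from GENCODE M21). let-7a-5p (chromosome 13, 48538239 to 48538260), let-7f-5p (48537889 to 48537910) and let-7d-5p (48536078 to 48536099) sat within 2161 nt on the minus strand, in exons of the noncoding RNA 6720427I07Rik. let-7c-5p (chromosome 15, 85706616 to 85706637) and let-7b-5p (85707325 to 85707346) lay 709 nt apart in exons of Lncppara. let-7f-5p had its other place on chromosome X (151912353 to 151912374), 876 nt from miR-98-5p (151913229 to 151913250), both in introns of Huwe1, a ubiquitin ligase gene. The other place of let-7a-5p was on chromosome 9 (41536732 to 41536753), in an intron of Gm49317, and that of let-7c-5p on chromosome 16 (77599672 to 77599693), in an intron of Mir99ahg. let-7e-5p (chromosome 17, 17830366 to 17830387) lay in an intron of Spaca6, let-7g-5p (chromosome 9, 106178846 to 106178867) in an intron of Wdr82 and let-7i-5p (chromosome 10, 122985698 to 122985719) in an exon of D630033A02Rik. let-7j (chromosome 3, 140028281 to 140028304) had no host transcript on its strand. A read of let-7a-5p, let-7c-5p or let-7f-5p cannot be assigned to one of its 2 places. No place overlapped a row on the opposite strand.

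Libraries held 1226187 to 3509001 counts. Of the 4 markers of heart muscle (miR-1a-3p, miR-133a-3p, miR-208a-3p and miR-499-5p) 4 were higher in TAC, and their summed level was 151714 to 182942.5 CPM in sham and 273336 to 325687 in TAC. The calls of miR-1a-3p and miR-499-5p held in 17 of 17 alternative analyses. When scaled by library totals, miR-133a-3p (edgeR adjusted p = 0.0779) and miR-208a-3p (edgeR adjusted p = 0.181) were not called. miR-208a-3p was also not called without a low-count filter or with a GC trend removed. The 2 fibroblast markers, miR-214-3p and miR-199a-5p, were both lower, with sums of 2612 to 3908 CPM in sham and 1587 to 1896 in TAC. Of 4 leukocyte markers 3 were tested, and the sums were 108 to 125 CPM in sham and 203 to 208 in TAC. miR-150-5p rose, whereas miR-155-5p (log2 change 0.56, edgeR adjusted p = 0.0523) and miR-223-3p (-0.19, edgeR adjusted p = 0.549) were not called. Of 3 red blood cell markers 2 were tested, with sums of 963 to 1122 CPM in sham and 1597 to 2994 in TAC. miR-451a rose and miR-144-3p was not called (log2 change 0.28, edgeR adjusted p = 0.366). Of 2 smooth muscle markers miR-143-3p rose (0.64 ± 0.11 on the log2 scale, edgeR adjusted p = 0.00406) and miR-145a-5p was not called, with sums of 34101 to 42650.3 CPM in sham and 58658.5 to 61654 in TAC. miR-142a-3p, miR-486a-5p, liver miR-122-5p and the endothelial miR-126a-3p and miR-126a-5p had 0 counts in every library. miR-142a-5p, from the same hairpin as miR-142a-3p, stood at a mean of 109 CPM in sham and 140 in TAC. The cause of the 0 counts was not tested, and they are not read as absence of a cell type. The part of the marker shifts in the let-7 values was not tested. In bulk tissue fewer cells of a type and less RNA per cell cannot be told apart.

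The family was dominated by 6 rows in both groups. In sham the highest was let-7c-5p at 57022 ± 6621 CPM, a count relative to library size scaled with edgeR's TMM factors (mean ± SD, n = 3 per group here and below). It was followed by let-7a-5p at 47473 ± 5247, let-7b-5p at 28000 ± 3337, let-7f-5p at 19566 ± 1440, let-7i-5p at 14238 ± 783 and let-7g-5p at 13871 ± 615 CPM. The ranges of let-7c-5p and let-7a-5p overlapped between libraries, but let-7c-5p was the higher of the pair within 6 of 6 libraries. The ranges of let-7i-5p and let-7g-5p overlapped too. Within libraries let-7i-5p was the higher of these in 3 of 3 sham libraries and the lower in 3 of 3 TAC libraries. Below them came let-7d-5p at 1046 ± 51.3, let-7e-5p at 348 ± 22.7, miR-98-5p at 127 ± 5.30 and let-7j at 14.4 ± 3.79 CPM, with no overlap between neighbours. The 6 abundant rows made up 99.2% of the family's counts in sham and 99.0% in TAC. How the counter treated reads with several places was not given in the sources used here. For the identical mature sequences of miR-199b-3p (1 place) and miR-199a-3p (2 places), the count of the latter over the former was 2, rounded to 3 decimals, in all 6 libraries. With counts divided by the number of places, the order changed: in sham let-7c-5p stood at 28511, let-7b-5p at 28000, let-7a-5p at 23736 and let-7f-5p at 9783 CPM, the last below let-7i-5p and let-7g-5p.

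**Figure D1:**
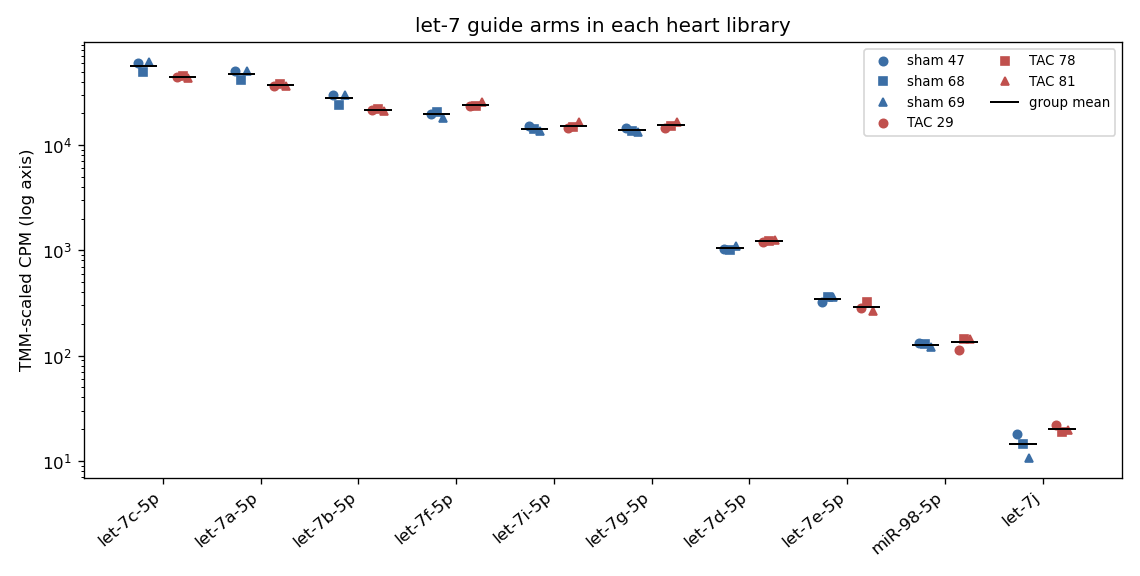
TMM-scaled CPM (log axis) of the 10 let-7 guide arms in each library, ordered by sham level; blue symbols are sham mice, red symbols TAC mice, and black bars group means. The 6 leftmost rows lie above 10000 CPM, the TAC libraries of let-7c-5p, let-7a-5p and let-7b-5p lie below the sham libraries, and those of let-7f-5p above them.

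Setting TAC against sham hearts addresses which miRNAs differ under lasting pressure load, and within the family the result was mixed. Of the 10 members, all of which were tested, 3 fell, 1 rose and 6 did not pass (edgeR quasi-likelihood test, Benjamini-Hochberg adjusted p under 0.05 over 354 miRNAs). Over all tested miRNAs 11.3% were called lower and 19.2% higher. The median log2 change of the members was 0.09 and that of all tested miRNAs 0.07. Groups did not overlap for 8 of the 10 members, 4 in each direction, against 51.4% of all tested miRNAs. The 3 rows that fell, which are also among these 8, kept nearly constant ratios to each other (SD of log2 ratio 0.0078 to 0.0173). Whether they hold separate reads was not tested. They are therefore not read as 3 separate results when set against these percentages.

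let-7a-5p stood at 50031, 41437 and 50949 CPM in sham 47, 68 and 69 and at 36685, 38220 and 36444 in TAC 29, 78 and 81. For let-7b-5p the sham libraries gave 29701, 24155 and 30144 CPM and the TAC libraries 21424, 22169 and 20960. For let-7c-5p the sham libraries gave 60355, 49397 and 61313 CPM and the TAC libraries 43972, 45816 and 43343. In each of these 3 rows every TAC library was below every sham library, and sham 68 was the lowest of the sham libraries. Their log2 changes were -0.36 ± 0.11 (standard error), -0.38 ± 0.11 and -0.36 ± 0.11, or 1.28, 1.30 and 1.28-fold lower, with edgeR adjusted p = 0.0366, 0.0283 and 0.0396. All 3 calls were lost without sham 47, sham 69, TAC 29, TAC 78 or TAC 81, where edgeR adjusted p ranged from 0.0612 to 0.142, and held without sham 68 (0.0136 to 0.0167).

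let-7f-5p stood at 19936, 20785 and 17978 CPM in sham 47, 68 and 69 and at 23728, 23266 and 25518 in TAC 29, 78 and 81. Every TAC library was above every sham library. The row rose by 0.30 ± 0.09 on the log2 scale, 1.24-fold (edgeR adjusted p = 0.0366). This call was lost without any one of the 6 mice (edgeR adjusted p from 0.0541 to 0.173) and with every other scaling. The change was 0.23 when scaled by RLE size factors and -0.0035 when scaled by library totals. After a trend with GC content was taken from each library it was -0.079 (edgeR adjusted p = 0.615). let-7f-5p and miR-98-5p, both at 31.8% GC, are the members poorest in G and C, while let-7a-5p has 36.4%, let-7c-5p 40.9% and let-7b-5p 45.5%. let-7j has 33.3%, let-7g-5p 36.4%, and let-7d-5p, let-7e-5p and let-7i-5p 40.9%. The TMM log2 changes of these, in that order, were 0.46, 0.15, 0.22, -0.27 and 0.10. The part of GC content in the changes was not tested. With the GC trend taken out, let-7a-5p was at -0.66, let-7c-5p at -0.58 and let-7b-5p at -0.51, all still called lower.

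let-7d-5p, from the same noncoding transcript as let-7a-5p and let-7f-5p, stood at 1026, 1007 and 1104 CPM in sham 47, 68 and 69 and at 1190, 1227 and 1243 in TAC 29, 78 and 81. The groups did not overlap, but the log2 change of 0.22 ± 0.09 did not pass (edgeR adjusted p = 0.0796). let-7g-5p stood at 14546, 13729 and 13340 CPM in sham and 14647, 15081 and 16529 in TAC, with the highest sham and lowest TAC library close together (log2 change 0.15 ± 0.09, edgeR adjusted p = 0.196). let-7i-5p stood at 15032, 14218 and 13466 CPM in sham and 14381, 15009 and 16427 in TAC, with overlapping groups (0.10 ± 0.09, edgeR adjusted p = 0.388). The signs of these 3 rows were not stable: with library totals they were -0.087, -0.16 and -0.21.

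let-7e-5p, in a cluster with miR-99b and miR-125a, stood at 322, 362 and 360 CPM in sham 47, 68 and 69 and at 280.0, 320.4 and 264 in TAC 29, 78 and 81. The highest TAC library, TAC 78, was just below the lowest sham library, sham 47, and the log2 change was -0.27 ± 0.13 (edgeR adjusted p = 0.130). DESeq2 called it lower (-0.34, DESeq2 adjusted p = 0.0388), as did edgeR with upper quartile factors, library totals, totals without the 5 most abundant miRNAs and the GC trend. miR-98-5p stood at 130.4, 129.99 and 121 CPM in sham and 114, 145 and 144 in TAC, with TAC 29 below and the others above all sham libraries (0.08 ± 0.15, edgeR adjusted p = 0.703). let-7j had 71, 29 and 27 counts in sham and 36, 28 and 21 in TAC. Its log2 change was 0.46 ± 0.25 (edgeR adjusted p = 0.186), the widest error of the family.

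**Figure D2:**
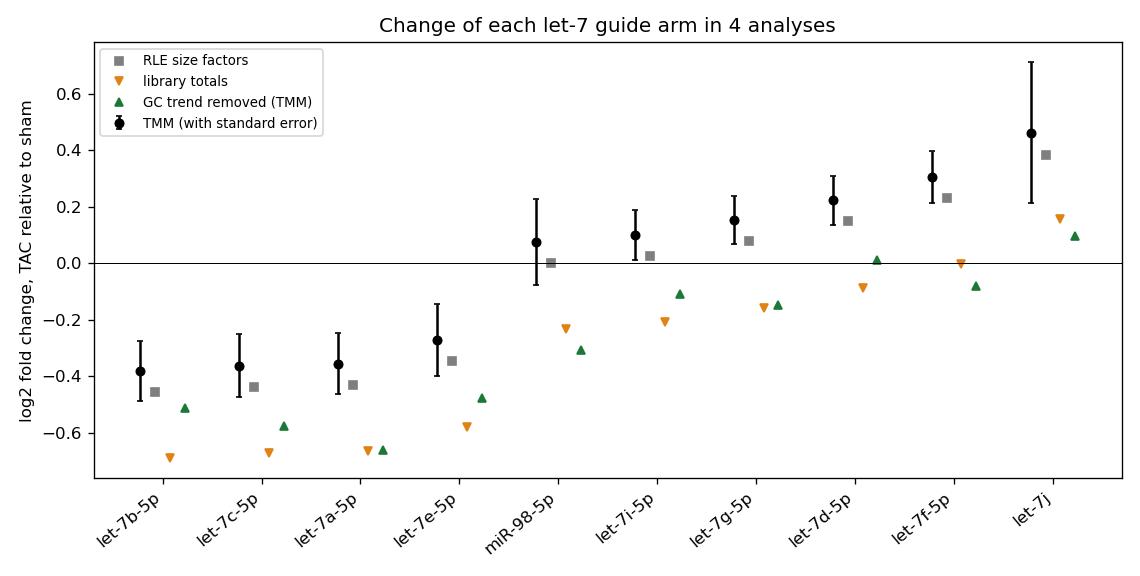
Log2 fold change of each member in TAC relative to sham with TMM factors (black, bars are standard errors), RLE size factors (grey), library totals (orange) and TMM factors after removal of a GC trend (green), ordered by the TMM value. The rows of let-7c-5p, let-7b-5p, let-7a-5p and let-7e-5p lie below 0 in all 4, whereas let-7f-5p moves from 0.30 to -0.0035 with library totals and to -0.079 with the GC trend removed.

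The counts of 2 rows in the same library can be compared without any scaling factor. let-7f-5p held 0.398, 0.502 and 0.353 times the count of let-7a-5p in sham 47, 68 and 69, and 0.647, 0.609 and 0.700 times in TAC 29, 78 and 81. Every TAC ratio was above every sham ratio, with sham 68 the nearest. The log2 ratio was -1.27 ± 0.26 in sham and -0.62 ± 0.10 in TAC, a difference of 0.66 or 1.58-fold. The exact permutation p (two-sided) was 0.1, the smallest that 3 against 3 allows, and 0.18 adjusted over the 9 ratios to let-7a-5p that were computed. Without any one mouse the difference lay between 0.54 and 0.80. In edgeR the change of let-7f-5p exceeded that of let-7a-5p by 0.66 with every scaling, as a scaling factor acts on both rows alike. With the GC trend removed, which treats the rows differently, the excess was 0.58.

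The ratios to let-7a-5p were higher in every TAC library than in every sham library for let-7d-5p (by 0.57 on the log2 scale), let-7g-5p (0.50), let-7i-5p (0.45) and let-7j (0.86), with the same exact permutation p of 0.1. That of miR-98-5p was 0.42 higher in TAC but the groups overlapped (exact permutation p = 0.2), and that of let-7e-5p differed by 0.07 (exact permutation p = 0.7). The ratios of let-7b-5p and let-7c-5p to let-7a-5p hardly moved: they differed by -0.02 and -0.01, with exact permutation p = 0.2 and 0.4. All these ratios have let-7a-5p as denominator, which itself fell (log2 change -0.36 ± 0.11), so they are not read as separate results. With TMM scaling the changes of let-7d-5p, let-7g-5p, let-7i-5p and let-7j were not called. How many of all tested miRNAs have such a ratio to let-7a-5p was not computed.

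**Figure D3:**
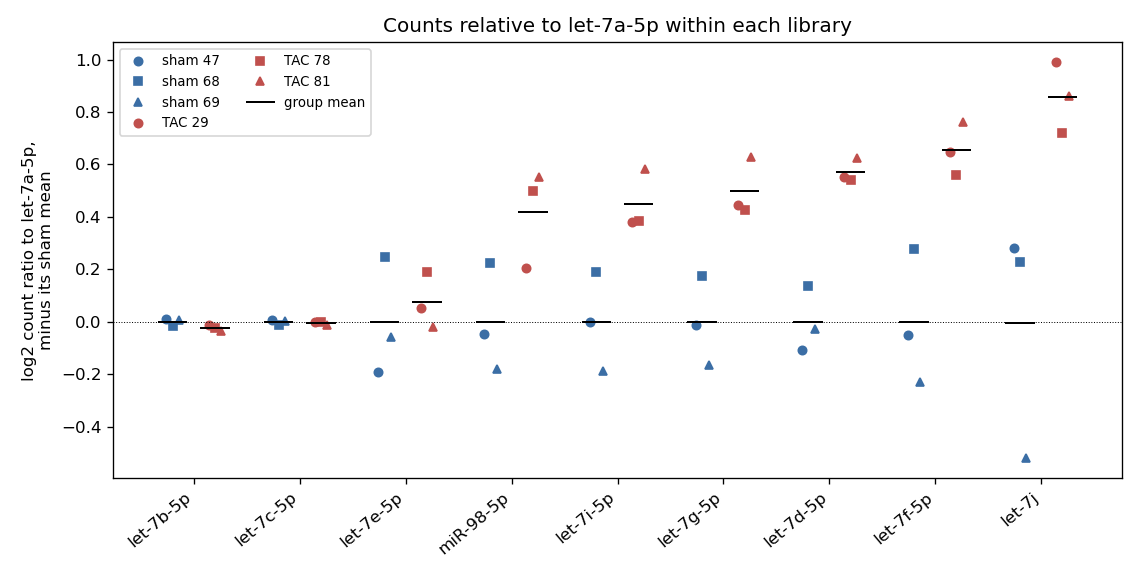
Log2 ratio of each member's count to that of let-7a-5p in the same library, minus the mean of the sham libraries; blue symbols are sham mice, red symbols TAC mice, and black bars group means. let-7b-5p and let-7c-5p stay near 0 in all libraries, while the TAC values of let-7d-5p, let-7f-5p, let-7g-5p, let-7i-5p and let-7j lie above the sham values.

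Some rows kept nearly constant ratios to each other in all libraries. let-7a-5p held between 0.829 and 0.841 times the count of let-7c-5p in the 6 libraries, and the SD of that log2 ratio was 0.0078, against 0.0073 from read counting alone. let-7b-5p held between 0.484 and 0.492 times the count of let-7c-5p (SD 0.0109, counting 0.0087), and the SD of the let-7a-5p to let-7b-5p ratio was 0.0173 (counting 0.0089). let-7g-5p and let-7i-5p, which differ by 2 substitutions at positions 17 and 19, held nearly equal counts, with ratios from 0.966 to 1.02 (SD 0.0317, counting 0.0125). The other 11 of the 15 pairs of abundant members had SDs from 0.105 to 0.415, all above their counting errors. Closeness in sequence did not order the pairs: let-7f-5p and let-7c-5p are both 1 substitution from let-7a-5p, and the SD of the let-7a-5p to let-7f-5p ratio was 0.40. Whether single reads were counted in more than 1 of these rows was not tested.

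**Figure D4:**
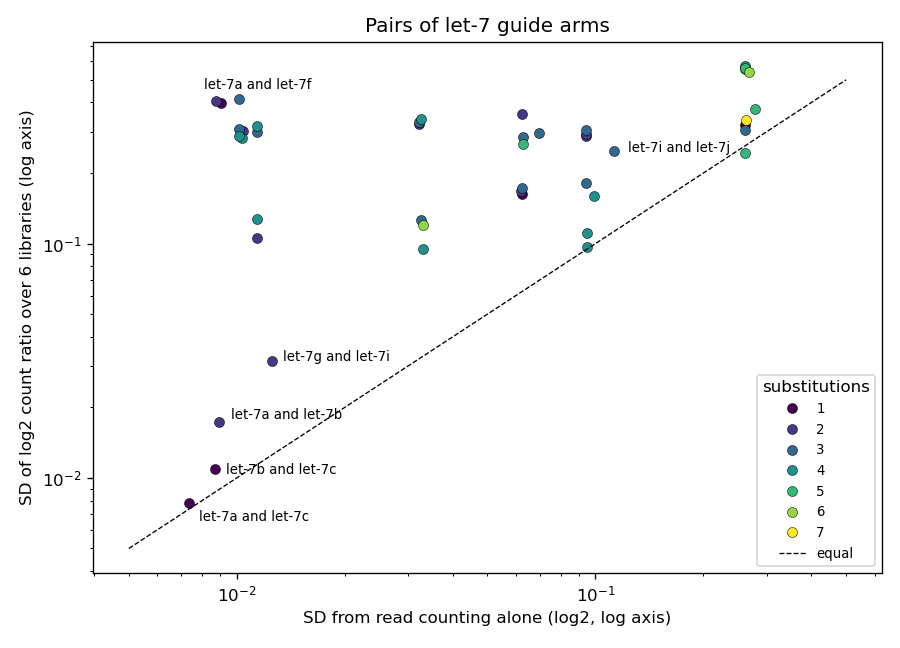
Each point is 1 of the 45 pairs of members: the SD of its log2 count ratio over the 6 libraries (vertical, log axis) against the SD expected from read counting (horizontal, log axis), coloured by the number of substitutions between the 2 sequences; the dashed line marks equality. The pairs among let-7c-5p, let-7a-5p and let-7b-5p lie close to the line at SDs of 0.0078 to 0.0173, and let-7a-5p with let-7f-5p lies at 0.40.

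The family as a whole took a smaller part of the counts in TAC. Its share of each library's total was 21.3%, 18.1% and 21.3% in sham 47, 68 and 69. In TAC 29, 78 and 81 the share was 14.4%, 14.6% and 14.0% (95% Wilson intervals at most 0.123 percentage points wide, for counting error only). Every TAC library was below every sham library. With counts divided by places, the shares were 17.0% ± 1.48 in sham and 12.3% ± 0.116 in TAC. Without miR-1a-3p in the total, they were 23.5% ± 1.78 and 18.0% ± 0.0805. A share is a level relative to the library total, and with that scaling the median log2 change of all tested miRNAs was -0.24, with 102 called lower and 25 higher. With the 10 rows, which all lie within 2 substitutions of another member, summed to 1 row, the log2 change at the TMM level was -0.17 ± 0.12, and edgeR did not call it.

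The make-up of the family also differed. let-7c-5p went from 31.3% ± 1.31 of the family's counts in sham to 27.8% ± 0.777 in TAC, let-7a-5p from 26.1% ± 0.959 to 23.3% ± 0.547 and let-7b-5p from 15.4% ± 0.690 to 13.5% ± 0.401. let-7f-5p went from 10.8% ± 1.57 to 15.1% ± 0.717, let-7g-5p from 7.66% ± 0.623 to 9.66% ± 0.529 and let-7i-5p from 7.87% ± 0.736 to 9.57% ± 0.558. For each of these 6 rows the groups did not overlap. The shares are parts of the same total, so a lower share of some rows raises that of the others. The 6 are therefore not read as separate results. At the TMM level let-7g-5p and let-7i-5p were not called, and the groups of let-7i-5p overlapped. The remaining 4 rows together stayed near 1% of the family.

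Neighbours of the let-7 hairpins did not all go the way of the let-7 rows. Of 5 guide arms of the miR-99 and miR-125 families that lie in clusters with let-7 hairpins, 2 rose, 0 fell and 3 did not pass, with a median log2 change of -0.08. miR-99a-5p lies 732 nt from let-7c-5p on chromosome 16 and rose by 0.39 ± 0.11, from 37879 ± 4280.4 to 49593 ± 1996 CPM (edgeR adjusted p = 0.0288). miR-100-5p, on chromosome 9 at 5295 nt from let-7a-5p, rose by 0.39 ± 0.11 with the same adjusted p. These 2 differ by 1 substitution and held a count ratio of 0.972 to 0.975 in every library. Whether they hold separate reads was not tested, so they are not read as 2 separate rises or placed at either locus. Both calls were lost in 13 of 17 alternatives, among them those lacking sham 68, sham 69 or any TAC mouse, and with library totals both changes were 0.08. miR-125b-5p has a place within 50 kb of let-7c-5p on chromosome 16 and another within 50 kb of let-7a-5p on chromosome 9. It was at -0.24 ± 0.10 (edgeR adjusted p = 0.0987) and was called lower in 6 of 17 alternatives, among them library totals (-0.55, edgeR adjusted p = 0.00445). miR-99b-5p and miR-125a-5p, 172 and 451 nt from let-7e-5p, were at -0.20 ± 0.09 and -0.08 ± 0.08 and did not pass. miR-99b-5p was called lower in 5 of 17 alternatives, among them RLE size factors (-0.27, edgeR adjusted p = 0.0461) and library totals (-0.51, edgeR adjusted p = 0.00383), and turned to 0.026 with the GC trend.

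let-7d goes against the label of guide arm. Its 3p strand held 14.7 to 20.6 times the counts of let-7d-5p in every library, whereas let-7b-3p held at most 0.00764 times and let-7e-3p at most 0.0950 times the counts of their 5p strands. Of the 13 rows listed for the other strands (among them let-7k, a row of its own hairpin), 8 were tested, 3 rose, 0 fell and 5 did not pass, with a median log2 change of 0.31. let-7d-3p rose by 0.57 ± 0.09, from 15860.2 ± 945 to 23488 ± 1599.8 CPM (edgeR adjusted p = 0.00316), a call kept in 16 of 17 alternatives and lost with library totals (0.26, edgeR adjusted p = 0.0729). let-7a-1-3p rose by 0.46 ± 0.13, against the fall of let-7a-5p. let-7c-2-3p, which has the same sequence and nearly the same counts, rose by 0.45 ± 0.13. As let-7a-1-3p and let-7c-2-3p have the same mature sequence, a read of that sequence cannot be assigned to either row alone. They are therefore not read as 2 separate results among the 3 rows that rose. With library totals they were at 0.15 and 0.14 and not called. Both calls also ended in the fits lacking sham 68, sham 69 or any TAC mouse. let-7a-1-3p was called in 6 of 17 alternatives and let-7c-2-3p in 3. let-7b-3p was at -0.21 ± 0.14 with overlapping groups and did not pass, in the same direction as its 5p strand (-0.38 ± 0.11).

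The miRNAs outside the family with the most similar pattern over the 6 libraries were sought among 142 with a mean of at least 100 CPM, by the root mean square difference of centred log2 CPM. For let-7c-5p they were miR-27b-3p (0.116), miR-27a-3p (0.118) and miR-3074-1-3p (0.122), against a median of 0.330 over the candidates. None of the 3 was called, at log2 changes of -0.19 ± 0.08, -0.19 ± 0.08 and -0.40 ± 0.15. For let-7f-5p they were miR-3535 (0.0667), miR-378b (0.0752) and miR-5099 (0.0860), against a median of 0.265, and none of these was called either. Within the family, let-7a-5p and let-7b-5p were at 0.0071 and 0.0100 from let-7c-5p, and let-7g-5p was the nearest member to let-7f-5p at 0.0963.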

How the data were processed

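Small RNA of 6 mouse hearts was measured, and the authors deposited raw read counts (whole numbers) of each mature miRNA, with coordinates, in 1 table. Per the submitters' processing notes, build mm10, HISAT2, StringTie and DESeq2 were used, with no role or version. Which counter, adapter trimming or strand option they used is not given in the sources used here. Of 6 value columns 0 were left unmapped.

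The whole table was fitted with edgeR 4.0.16 in R 4.3.3 (TMM factors, filterByExpr, quasi-likelihood test, no covariate), and p-values were adjusted over the 354 miRNAs tested. At these depths 3 counts, the limit that a count of 0 allows, equal 0.855 to 2.45 CPM. Ratios were compared with exact permutation tests (scipy 1.17.1). No pair of libraries within a group was a copy (chi-square per degree of freedom of 31.6 or more). Pairs across groups were not compared. Alternatives used DESeq2 1.42.0, limma 3.58.1, other scalings, filters, counts divided by places, summed near-identical rows (at most 2 substitutions), a GC trend (span 0.75; 89% of tested rows had a sequence, the others kept their values) and leaving out each mouse. The pipeline was tested on simulated data.

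Members and lists were chosen with earlier results of these data known. All 10 members and all cell type markers are named. Of the other lists, called members and those at 100 CPM or more are named. Likeness was sought for the most abundant member called in each direction.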

Additional observations from a re-analysis of the deposited data

How the results depend on the processing

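The counts of 3 members lower and 1 higher in TAC depended on the analysis. No member was called higher (0) with RLE, upper quartile or TMM factors computed without the family, library totals, totals without the 5 most abundant miRNAs (let-7c-5p among them), DESeq2, no low-count filter, counts divided by places, the GC trend or near-identical rows summed, which also gave 0 lower; the cause was not tested, except that summing leaves 1 row. Leaving out 1 mouse gave 0 higher each time and 0 to 3 lower.

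The median log2 change of all tested miRNAs went from 0.07 with TMM to -0.24 with library totals, with 25 called higher and 102 lower against 68 and 40. Signs turned with library totals for let-7d-5p (-0.087), let-7f-5p (-0.0035), let-7g-5p (-0.16), let-7i-5p (-0.21) and miR-98-5p (-0.23). With upper quartile factors let-7g-5p, let-7i-5p and miR-98-5p were at -0.0021, -0.054 and -0.078, without the 5 most abundant miRNAs at -0.011, -0.062 and -0.087, and without a low-count filter at -0.0059, -0.057 and -0.081. With the GC trend let-7f-5p, let-7g-5p, let-7i-5p and miR-98-5p were at -0.079, -0.15, -0.11 and -0.31. DESeq2 put miR-98-5p at -0.0022. The difference between groups in the log2 ratio of let-7e-5p to let-7a-5p ranged from -0.022 (without sham 47) to 0.20 (without sham 68). The rows of let-7c-5p, let-7b-5p, let-7a-5p and let-7e-5p were lower, and let-7j higher, in all 17 alternatives that kept the rows apart.

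No paired analysis was possible because the groups share no animal number. The 3 mice per group limit every p, and the few counts of let-7j limit its precision.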
